A study of Mus musculus with 12 samples.

Results

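The 9 glycolytic enzymes described here are Hk1, Hk2, Pfkl, Aldoa, Gapdh, Pgk1, Eno1, Pkm and Ldha, taken by name among the 55414 genes of the count table. Their identifiers were matched to these symbols in the mouse gene annotation, without regard to their levels, and 9 of 9 passed the filter on low counts. The livers came from female C57BL/6J mice of 8 to 12 weeks, for which the labels name no engineered allele. As first i.p. injection they received either 300 mg/kg FeSO4 (ferrous sulfate, an acute iron overload) or 0.9% NaCl, and 6 h later either PBS or 10 mg/kg dexamethasone (DEX, a synthetic glucocorticoid that binds the glucocorticoid receptor, GR). Whole livers were collected 2 h after the second injection, 8 h after the first, which gave 4 groups of 3 mice: NaCl/PBS, FeSO4/PBS, NaCl/DEX and FeSO4/DEX. The comparisons ask which enzymes changed with iron, with DEX, and with DEX in livers already exposed to iron. There was 1 dose and 1 time for each agent, and the labels give neither a batch nor a cage, so that the p-values measure the spread between these mice.

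Glycolysis splits glucose into pyruvate, which lactate dehydrogenase can reduce to lactate. Hepatocytes use isozymes of their own at some of the steps, such as the liver pyruvate kinase (Pklr), and run several of the reversible steps backwards to make glucose. The isozymes Hk1, Hk2, Aldoa and Pkm are known from muscle, brain, proliferating and immune cells, and many glycolytic genes carry hypoxia response elements, which bind the hypoxia-inducible factors (HIF), whose degradation needs iron. Fewer cells of a type and less RNA per cell cannot be told apart in these bulk samples.

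The start regions of 4 of the enzymes are printed because these genes cover the range of responses. Aldoa and Gapdh rose with iron, Pfkl fell, and Ldha did not pass the test. In the NaCl/PBS mice Ldha had the most counted reads of the 9 per length, where reads that map to several places are not counted. The regions are RefSeq windows on the GRCm38.p6 build, from 250 bases before the annotated start to 50 bases from it, on the strand of the gene. Capitals mark the letters of the hypoxia response element core, ACGTG or GCGTG, on either strand, and a CACGTG therefore counts as 2 overlapping matches.
Aldoa, window 2, chr7:126799205-126799504, minus strand: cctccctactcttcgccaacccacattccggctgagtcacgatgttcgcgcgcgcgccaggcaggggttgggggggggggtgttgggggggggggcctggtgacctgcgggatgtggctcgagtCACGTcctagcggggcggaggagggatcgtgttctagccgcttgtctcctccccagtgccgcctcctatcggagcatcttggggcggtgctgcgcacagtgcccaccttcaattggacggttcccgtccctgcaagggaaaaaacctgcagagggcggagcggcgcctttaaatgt
Gapdh, chr6:125165724-125166023, minus strand: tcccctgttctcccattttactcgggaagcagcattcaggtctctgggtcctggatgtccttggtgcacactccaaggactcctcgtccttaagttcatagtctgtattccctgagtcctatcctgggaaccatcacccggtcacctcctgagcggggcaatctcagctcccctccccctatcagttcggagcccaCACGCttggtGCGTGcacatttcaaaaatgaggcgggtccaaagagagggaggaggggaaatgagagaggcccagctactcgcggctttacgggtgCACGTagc
Pfkl, chr10:78009758-78010057, minus strand: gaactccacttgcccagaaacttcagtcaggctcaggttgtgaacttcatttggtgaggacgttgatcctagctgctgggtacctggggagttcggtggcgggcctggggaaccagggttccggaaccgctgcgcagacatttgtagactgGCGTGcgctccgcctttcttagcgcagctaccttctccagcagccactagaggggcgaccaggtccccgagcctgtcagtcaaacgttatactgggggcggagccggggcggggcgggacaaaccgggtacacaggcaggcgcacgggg
Ldha, window 1, chr7:46845554-46845853, plus strand: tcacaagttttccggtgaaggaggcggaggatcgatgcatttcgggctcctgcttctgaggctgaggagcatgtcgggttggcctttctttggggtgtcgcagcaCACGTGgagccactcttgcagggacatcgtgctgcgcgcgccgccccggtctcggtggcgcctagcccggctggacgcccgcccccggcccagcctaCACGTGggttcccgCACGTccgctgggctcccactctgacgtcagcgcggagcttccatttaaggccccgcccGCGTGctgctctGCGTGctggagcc

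The core was found in 13 of the 16 windows that RefSeq gives for the 9 enzymes, some of which overlap each other, and in 14380 (43.8%) of all 32851 windows of this length. Ldha window 1 had 7 matches, Hk1 window 2 had 5 and Gapdh 3, whereas the shown windows of Aldoa and Pfkl had 1 each. Each enzyme had the core in at least 1 of its windows, whereas window 1 of Hk1, of Aldoa and of Pkm had 0 matches. Whether the core has a part in the responses was not tested. The full E-box CACGTG occurred in 7.15% of all windows and among the 9 enzymes in Ldha window 1 alone, where it stood at 2 places. The letters TGACNNNGC, the core of the antioxidant response element, occurred in 12.4% of all windows and in Aldoa window 2 and Hk1 window 2 among those of the enzymes. A match is a description of letters, and no binding was measured.

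Between 16335651 and 23827340 reads were counted on genes per mouse. TMM factors of edgeR (0.87 to 1.16) set the scale, and levels are given as normalized counts at the mean library size. LFCs are on the log2 scale, and a gene was called with an FDR of 0.05 or less, which is edgeR's quasi-likelihood p adjusted by the Benjamini-Hochberg method over the 13857 genes tested. The mouse labelled FeSO4/PBS 1 stood apart from the other FeSO4/PBS mice in several enzymes, and results that rest on it are given with and without it.

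FeSO4 raised the transcripts of 5 of the 9 enzymes, lowered 1, and left 3 short of the threshold. Aldoa, Eno1 and Gapdh more than doubled, Pkm nearly so, and Pgk1 rose by a smaller factor, while Pfkl fell. Of all genes tested, 27.2% were called higher and 27.3% lower in this comparison. A call was thus common in this comparison. With library size alone as the scale, which moved the median LFC of all genes to -0.34, 2285 genes were called higher and 5829 lower in place of 3770 and 3783, and 4 enzymes were higher and 1 lower. With an LFC beyond 1 in addition, 3 enzymes were higher and 0 lower, where 12.5% and 14.7% of all genes were. The values of the 3 FeSO4/PBS mice exceeded those of the 3 NaCl/PBS mice without overlap in 6 enzymes and fell short of them without overlap in 1, as in 29.0% and 31.0% of all genes. The median LFC of the 9 enzymes was 0.55, against -0.02 over all genes.

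**Figure D1:**
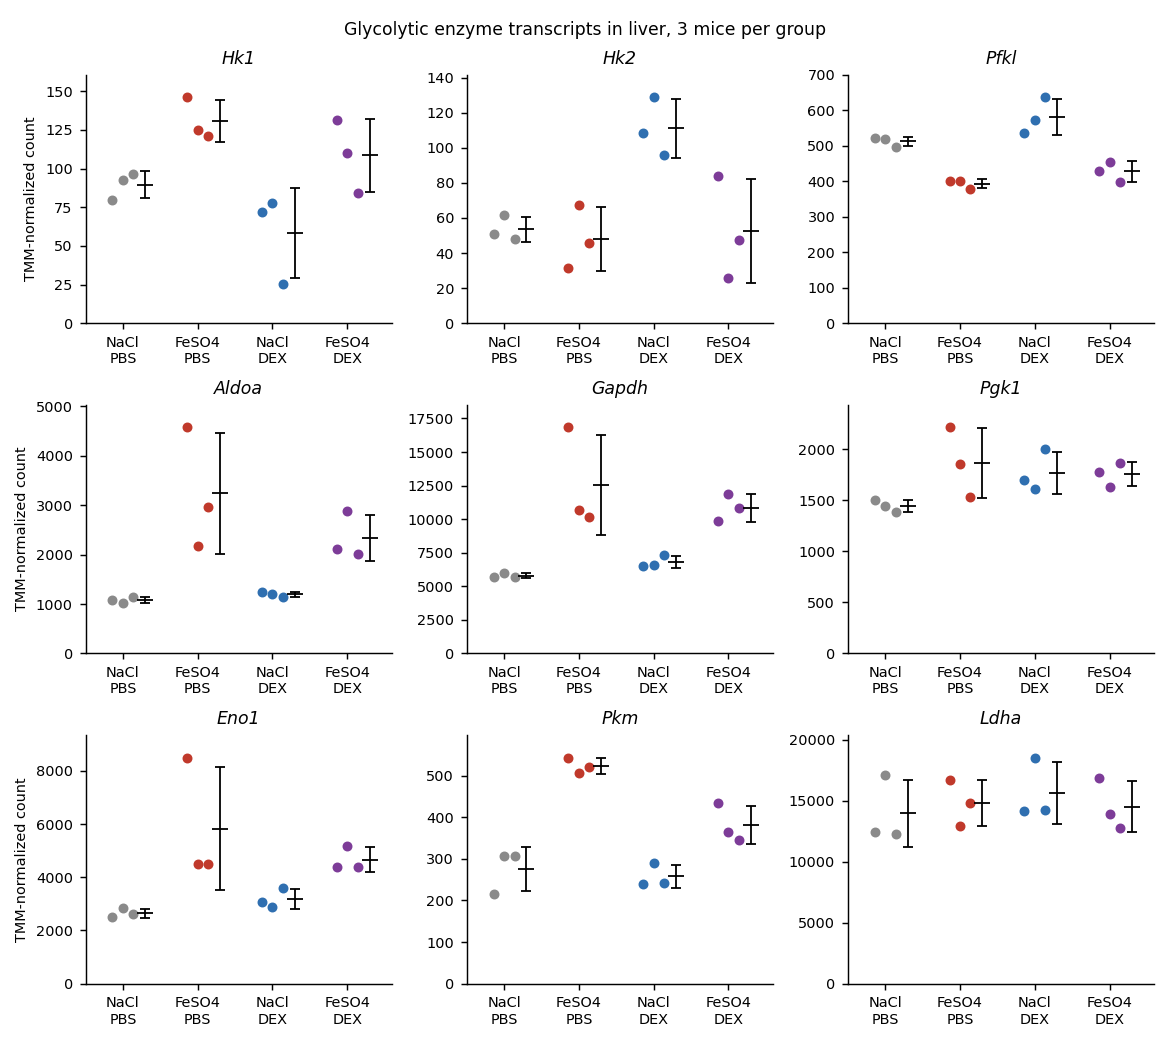
TMM-normalized counts of the 9 glycolytic enzymes in each of the 12 livers, with a linear y axis from 0 in each panel. Points are mice, in the order of their labels, and the black marks give the group mean and SD (n = 3). The red FeSO4/PBS points of Aldoa, Gapdh, Eno1 and Pkm all lie above the grey NaCl/PBS points, and those of Pfkl all lie below them.

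Hexokinases trap glucose as glucose 6-phosphate, the entry step of the pathway. Hk1, the hexokinase of most tissues (chromosome 10, 62104621 to 62215687, minus strand, GRCm39 as are the gene positions that follow), had normalized counts of 146, 125 and 121 in the FeSO4/PBS mice and of 79.8, 92.6 and 96.5 in the NaCl/PBS mice. The groups did not overlap, yet the LFC of 0.55 ± 0.30 (SE) had an FDR of 0.14 in edgeR's quasi-likelihood test. It passed with the other 6 libraries left out of the fit (FDR 0.032) and without NaCl/DEX mouse 3 (FDR 0.028), so that this call depends on which libraries share the estimate of the spread. Hk2, the insulin-responsive hexokinase of muscle and fat (chromosome 6, 82699740 to 82751469, minus strand), had normalized counts of 31.2, 67.1 and 45.9 with FeSO4 and of 51.1, 61.7 and 48.2 with NaCl. The groups overlapped, and the 95% confidence interval of the LFC ran from -0.92 to 0.62.

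Phosphofructokinase commits fructose 6-phosphate to glycolysis, and Pfkl (chromosome 10, 77818084 to 77845922, minus strand) encodes its liver subunit. Its normalized counts were 400, 402 and 379 in the FeSO4/PBS mice and 522, 518 and 498 in the NaCl/PBS mice. All FeSO4/PBS values were below all NaCl/PBS values, and the spread within each group was small. The LFC was -0.38 ± 0.10 (SE), a fold change of 0.768, with an edgeR FDR of 0.0064. This was the only member called lower, and the call held in all 19 alternatives. Pfkl shares a stretch with Cfap410 on the opposite strand, which had 888 reads against 5813 for Pfkl. The muscle subunit Pfkm had an LFC of -0.38 that was not called (FDR 0.069), whereas the platelet subunit Pfkp rose with an LFC of 1.73 ± 0.20 (SE) and an edgeR FDR of 8.6e-06. Per kilobase of transcript, Pfkl made up 61.2% to 65.6% of the phosphofructokinase transcripts in the NaCl/PBS mice and 49.5% to 57.4% in the FeSO4/PBS mice. The share of Pfkp went from between 5.94% and 6.69% to between 21.5% and 25.7%, without overlap between the groups.

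Aldolase cleaves fructose 1,6-bisphosphate into a pair of triose phosphates, and Aldoa (chromosome 7, 126393822 to 126399923, minus strand) encodes the form of muscle and most other tissues. Aldoa had normalized counts of 4574, 2171 and 2973 with FeSO4 and of 1088, 1027 and 1137 with NaCl. The groups were well apart, with mouse 1 highest. It showed the largest rise of the 9 enzymes, with an LFC of 1.58 ± 0.21 (SE), a fold change of 2.99 and an edgeR FDR of 3.4e-05. Without FeSO4/PBS mouse 1 the LFC was 1.25, with an edgeR FDR of 1.8e-05.

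Glyceraldehyde-3-phosphate dehydrogenase oxidizes triose phosphate and yields the NADH of the pathway. Gapdh (chromosome 6, 125135289 to 125143518, minus strand) had normalized counts of 16841, 10704 and 10163 in the FeSO4/PBS mice. In the NaCl/PBS mice it had 5661, 6030 and 5692, a narrow range well below the FeSO4 values. The LFC was 1.12 ± 0.17 (SE), a fold change of 2.17, with an edgeR FDR of 7.4e-05. It was 0.85 without FeSO4/PBS mouse 1. Gapdh is widely used as a reference transcript. The methods of the study scale RT-qPCR values, which were not analysed here, to the geometric mean of it and an Rpl transcript. They also state that Genorm was used to assess how stable the reference transcripts were. In these livers the level of Gapdh differed between the NaCl and FeSO4 groups. Gapdh shares a stretch with Iffo1 on the opposite strand, which had 1575 reads against 104609 for Gapdh.

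Gapdh also has many processed pseudogenes. Of the 100-base windows of its transcript, as long as the reads, 85.1% had an exact copy elsewhere in the genome, and 83 annotated pseudogenes held such copies. Those pseudogenes were assigned 1446 reads over the 12 libraries, or 1.38% of the 104609 assigned to Gapdh. The counting mode of STAR keeps uniquely mapped reads only, so that reads from copied stretches that map to several places would be missing from the count of Gapdh. The level of Gapdh is uncertain for this reason, and its part in the difference between the groups was not tested.

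Phosphoglycerate kinase makes the first ATP of the pathway. Pgk1 (chromosome X, 105230706 to 105247305, plus strand) had normalized counts of 2216, 1856 and 1532 with FeSO4 and of 1500, 1446 and 1388 with NaCl. The groups did not overlap, but the lowest FeSO4 mouse was close to the highest NaCl mouse. The LFC was 0.37 ± 0.13 (SE), with an edgeR FDR of 0.029. The call was lost without FeSO4/PBS mouse 1 (LFC 0.23, FDR 0.12) or mouse 2, without any 1 of the NaCl/PBS mice, with library size alone as the scale (LFC 0.05, FDR 0.76) and with the DEX libraries left out of the fit (FDR 0.056). Of the windows of its transcript, 89.8% had an exact copy elsewhere, which limits its level as for Gapdh.

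Enolase turns 2-phosphoglycerate into phosphoenolpyruvate. Eno1 (chromosome 4, 150321073 to 150337027, plus strand) had normalized counts of 8503, 4487 and 4494 in the FeSO4/PBS mice and of 2497, 2844 and 2608 in the NaCl/PBS mice. All FeSO4 values were above all NaCl values, and mouse 1 was nearly double the other FeSO4/PBS mice. Its LFC was 1.14 ± 0.21 (SE), with an edgeR FDR of 3.8e-04, and 0.77 without mouse 1, with an edgeR FDR of 1.5e-04. The muscle form Eno3 was low, between 38.3 and 58.9 normalized counts in these groups, with an LFC of -0.15 that was not called (FDR 0.62). Exact copies elsewhere covered 51.9% of the windows of the Eno1 transcript.

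Pyruvate kinase makes pyruvate and ATP. Pkm (chromosome 9, 59563364 to 59586663, plus strand), the form of muscle and dividing cells, had normalized counts of 543, 506 and 522 with FeSO4 and of 215, 307 and 307 with NaCl. The FeSO4/PBS mice lay close together and above every NaCl/PBS mouse, and mouse 1 did not stand apart here. The LFC was 0.92 ± 0.15 (SE), a fold change of 1.90, with an edgeR FDR of 1.5e-04.

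The liver form Pklr had normalized counts of 4732, 3247 and 3026 with FeSO4 and of 4485, 5033 and 5019 with NaCl, and its LFC of -0.40 ± 0.20 (SE) was not called (FDR 0.11). Without FeSO4/PBS mouse 1, which had the highest of these FeSO4 values, Pklr was called lower (LFC -0.62, FDR 0.016), as it was with library size alone (LFC -0.73, FDR 0.0047). Pkm made up 6.30% to 7.90% of the pyruvate kinase transcripts per kilobase in the NaCl/PBS mice and 13.9% to 19.5% in the FeSO4/PBS mice. Within a library the Pkm to Pklr ratio was 2.58-fold higher with FeSO4, and the groups did not overlap (exact two-sided permutation test, p = 0.1, the smallest that 3 against 3 mice can give, adjusted p = 0.25 over 5 ratios). Pkm shares a stretch on the same strand with the unconfirmed transcript Gm49759, which had 427 reads against 4215 for Pkm.

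Lactate dehydrogenase A reduces pyruvate to lactate. Ldha (chromosome 7, 46490899 to 46505061, plus strand) had normalized counts of 16716, 12926 and 14795 with FeSO4 and of 12449, 17134 and 12294 with NaCl. The groups overlapped, and the LFC of 0.09 ± 0.17 (SE) had a 95% confidence interval from -0.27 to 0.44. The LFCs of Aldoa, Gapdh, Eno1 and Pkm lie above this interval. Ldhb, the heart form, was nearly absent, with 15.1 to 31.5 normalized counts with FeSO4 and 15.9 to 27.9 with NaCl.

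**Figure D2:**
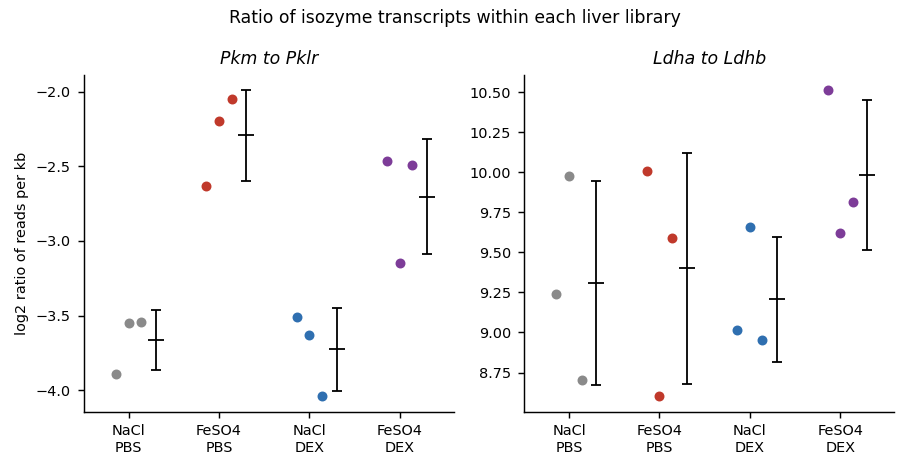
Log2 ratio of reads per kilobase of transcript between isozymes of pyruvate kinase and of lactate dehydrogenase, in each of the 12 liver libraries. Points are mice, black marks give the group mean and SD (n = 3), and the y axes differ between panels. The Pkm to Pklr ratio of the FeSO4/PBS mice lies between -2.63 and -2.05 and that of the NaCl/PBS mice between -3.89 and -3.54.

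The ratio of Ldha to Ldhb overlapped between the FeSO4/PBS and NaCl/PBS mice, with a difference of 0.09 on the log2 scale (exact two-sided permutation test, p = 0.9, adjusted p = 0.9 over 5 ratios).

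The other enzymes of the pathway were taken as a list of 20 genes, of which 14 were tested. With FeSO4, 6 of them rose and 1 fell, where 27.2% and 27.3% of all genes did, with a median LFC of 0.00. The steps that have no member among the 9 enzymes rose as well, although without FeSO4/PBS mouse 1 Tpi1 lost its call (FDR 0.13) and Gpi1 had an LFC of 0.42 (FDR 0.022), and Gpi1 (FDR 0.056) and Tpi1 (FDR 0.61) lost theirs with library size alone. Gpi1, which converts glucose 6-phosphate to fructose 6-phosphate, had an LFC of 0.84 (edgeR FDR 0.0064), Tpi1, which interconverts the triose phosphates, one of 0.40 (edgeR FDR 0.029), and Pgam1, the phosphoglycerate mutase, one of 0.75 (edgeR FDR 2.4e-04), or of 0.43 with library size alone. Hk3, a hexokinase known from myeloid cells, was the 1 that fell, with an LFC of -1.34 (edgeR FDR 2.2e-04). With library size alone as the scale, 3 of the list were higher and 3 lower.

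**Figure D3:**
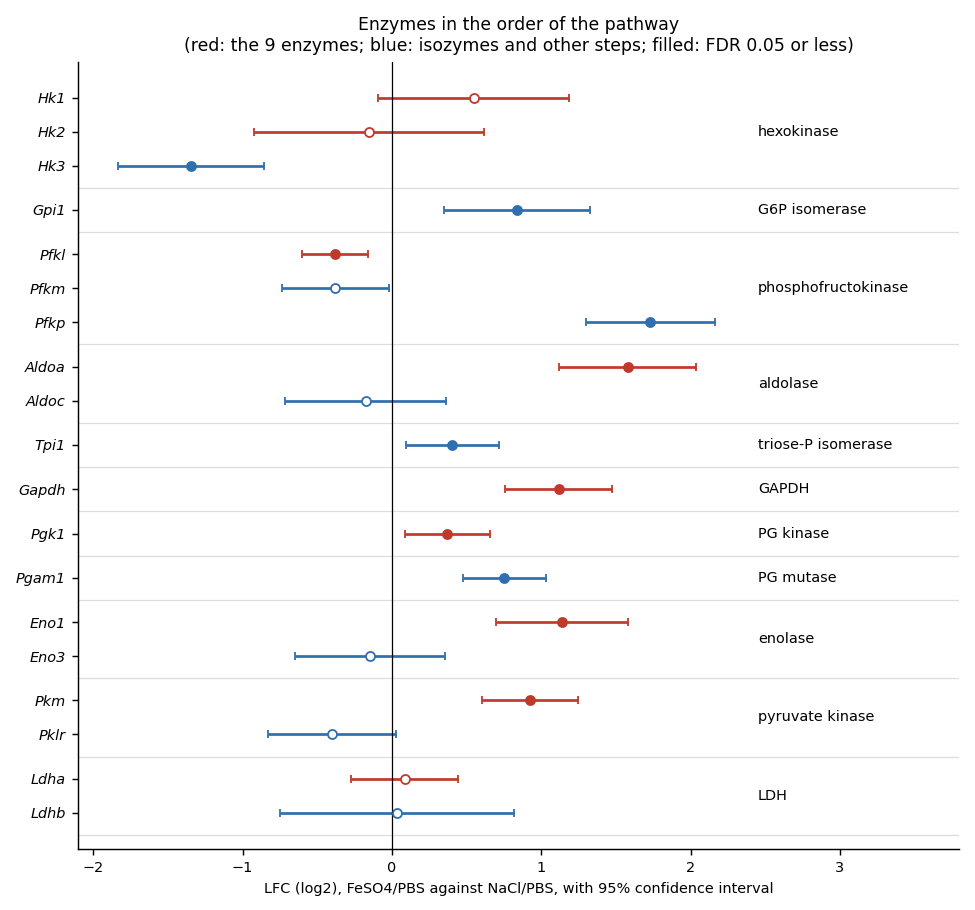
LFC of FeSO4/PBS against NaCl/PBS with its 95% confidence interval, for the 9 enzymes and some of the others in the order of the pathway from glucose at the top to lactate at the bottom. Red marks the 9 enzymes, blue isozymes and the other steps, and filled points had an FDR of 0.05 or less. From aldolase to enolase each step has a filled point to the right of 0, whereas Pfkl and Hk3 lie to its left.

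Genes that move glucose and lactate or set the flux were also changed. Of a list of 18, all tested, 12 rose and 2 fell with FeSO4, where 27.2% and 27.3% of all genes did. The median LFC was 0.68. With library size alone as the scale, 7 were higher and 4 lower, with a median of 0.36. Pdk4, a kinase that shuts pyruvate out of the mitochondrial oxidation, had normalized counts of 515, 14233 and 14043 with FeSO4 and of 95.7, 149 and 81.3 with NaCl. Mouse 1 thus stood far below the other FeSO4/PBS mice, though above all NaCl/PBS mice, and the LFC was 6.47 ± 0.92 (SE) with an edgeR FDR of 5.2e-05, and 7.04 without mouse 1. Slc16a1, a lactate and pyruvate transporter of the cell membrane, rose with an LFC of 2.69 (edgeR FDR 1.3e-07). Pfkfb3, which makes the allosteric activator of phosphofructokinase, rose with an LFC of 2.59 (edgeR FDR 4.2e-07).

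Of the 6 genes used in gluconeogenesis but not in glycolysis, 0 rose by edgeR's test and by DESeq2's, and 1 fell at an unadjusted p under 0.05 as well as by the FDR. This was Pck1, which makes phosphoenolpyruvate from oxaloacetate, with normalized counts of 3377, 14811 and 6516 with FeSO4 and of 43527, 48206 and 47515 with NaCl, an LFC of -2.49 ± 0.41 (SE) and an edgeR FDR of 1.6e-04. Of 15 known HIF targets outside glycolysis 12 were tested. Of these 4 rose and 2 fell, where 27.2% and 27.3% of all genes did, with a median LFC of 0.32. With library size alone, 3 of these were higher and 2 lower, with a median of 0.01, and 2 of the gluconeogenesis genes were lower. Ddit4, an inhibitor of mTORC1, rose with an LFC of 3.19 (edgeR FDR 1.5e-07), and Ndrg1, a gene of stress responses, with one of 1.63 (edgeR FDR 1.8e-06). P4ha1, a collagen prolyl hydroxylase, fell with an LFC of -1.31 (edgeR FDR 1.5e-04). Epo was at 0 in all libraries.

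Markers of several cell types moved with FeSO4 beside these genes, in a comparison where 27.2% of all genes were called higher and 27.3% lower. The 8 hepatocyte markers were abundant, 4 of them rose and the other 4, Alb among them, were not called, with a summed normalized count from 1932530 to 2282550 in the NaCl/PBS mice and from 2504640 to 2866550 in the FeSO4/PBS mice. Of 10 neutrophil markers 6 were tested and 5 rose. The summed normalized count of the 10 was 118 to 297 with NaCl and 760 to 914 with FeSO4. S100a9 and S100a8 were the highest of them, with means of 360 and 187 in the FeSO4/PBS mice. Csf3r was not called, with means of 77.4 in the NaCl/PBS and 74.0 in the FeSO4/PBS mice. Ly6g, Mpo, Elane and Camp did not pass the filter on low counts. Of 10 macrophage markers 9 fell, and the sum was 9202 to 10746 with NaCl and 5002 to 5819 with FeSO4. The sum of 6 erythroid markers, of which 2 rose, was 1403 to 3271 with NaCl and 2489 to 4863 with FeSO4. In 6 cholangiocyte markers, of which 2 rose, it was 534 to 686 and 1068 to 1377. Markers of skeletal muscle, a tissue rich in Aldoa, Eno3 and Pkm, were low. Ckm, Acta1 and Myh4 were at 0 in all 12 libraries. The sum of the 6 muscle markers was 14.4 to 15.9 with NaCl and 10.2 to 13.1 with FeSO4. Of the lymphocyte markers 6 were tested and 1 fell, of the 8 endothelial markers 3 rose and 2 fell, of the 8 stellate cell markers 2 rose and 2 fell, and of 3 mesothelial markers 1 fell. Of the 7 pancreatic acinar markers 5 were at 0 and 1 was tested but not called, and of 6 proliferation markers 0 were called by edgeR, with 2 at an unadjusted p under 0.05, while DESeq2 called 1 higher and 1 lower. With library size alone, the counts of neutrophil and macrophage markers were as above, while 2 of the hepatocyte markers were higher (6 by DESeq2), 0 of the erythroid (1 by DESeq2) and 1 of the cholangiocyte markers were higher, 2 endothelial markers were higher and 5 lower, 0 stellate cell markers were higher and 2 lower, and 2 lymphocyte markers and 1 proliferation marker were lower. The part of any of these cell types, skeletal muscle included, in the levels of the 9 enzymes was not tested.

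Among mice given DEX, Aldoa, Gapdh, Eno1 and Pkm were higher and Pfkl was lower with FeSO4, as among mice given PBS. In FeSO4/DEX against NaCl/DEX 5 of the 9 enzymes were higher and 2 lower, where 22.4% and 20.9% of all genes were, and the median LFC was 0.55 against 0.01 over all genes. With library size alone, which put that median of all genes at -0.18, 2151 genes were higher and 4146 lower in place of 3103 and 2902. The mice did not overlap in 5 enzymes that were higher and in 2 that were lower, as in 28.8% and 27.1% of all genes. These mice share no library with the comparison of the PBS mice. Both comparisons came from 1 model of the 12 libraries, however, and share its estimate of the spread. Aldoa had normalized counts of 2122, 2880 and 2013 with FeSO4/DEX and of 1241, 1202 and 1139 with NaCl/DEX. The groups did not overlap, and the LFC was 0.97 ± 0.21 (SE) with an edgeR FDR of 0.0021. Gapdh was higher with an LFC of 0.67 (edgeR FDR 0.0046) and Pkm with one of 0.57 (edgeR FDR 0.0077), a call that library size alone did not give (FDR 0.073).

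Hk1 had normalized counts of 131, 110 and 84.4 with FeSO4/DEX and of 71.9, 78.0 and 25.2 with NaCl/DEX, an LFC of 0.90 ± 0.31 (SE) and an edgeR FDR of 0.032. NaCl/DEX mouse 3 was far below the others, and without it the LFC was 0.54 with an FDR of 0.077. The call was also lost without FeSO4/DEX mouse 1 (FDR 0.12) or 2 (FDR 0.076), with library size alone (FDR 0.091) and with the PBS libraries left out of the fit (FDR 0.066). Eno1 was higher with an LFC of 0.55 (edgeR FDR 0.043), a call that was lost without any 1 of 8 mice, with the replicate number as a block and with library size alone (LFC 0.35, FDR 0.15). Pfkl was lower again, with normalized counts of 430, 455 and 398 against 536, 573 and 637, an LFC of -0.44 ± 0.10 (SE) and an edgeR FDR of 0.0032. Pgk1 had an LFC of -0.01 and Ldha one of -0.11, neither called.

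Hk2 was the other member that was lower in the FeSO4/DEX mice. Its normalized counts were 84.1, 25.8 and 47.6 there and 108, 129 and 95.6 in the NaCl/DEX mice, without overlap. The LFC was -1.05 ± 0.35 (SE) with an edgeR FDR of 0.025, and the call was lost without FeSO4/DEX mouse 2 or 3 and without NaCl/DEX mouse 1 or 2 (FDR 0.050 to 0.083).

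**Figure D4:**
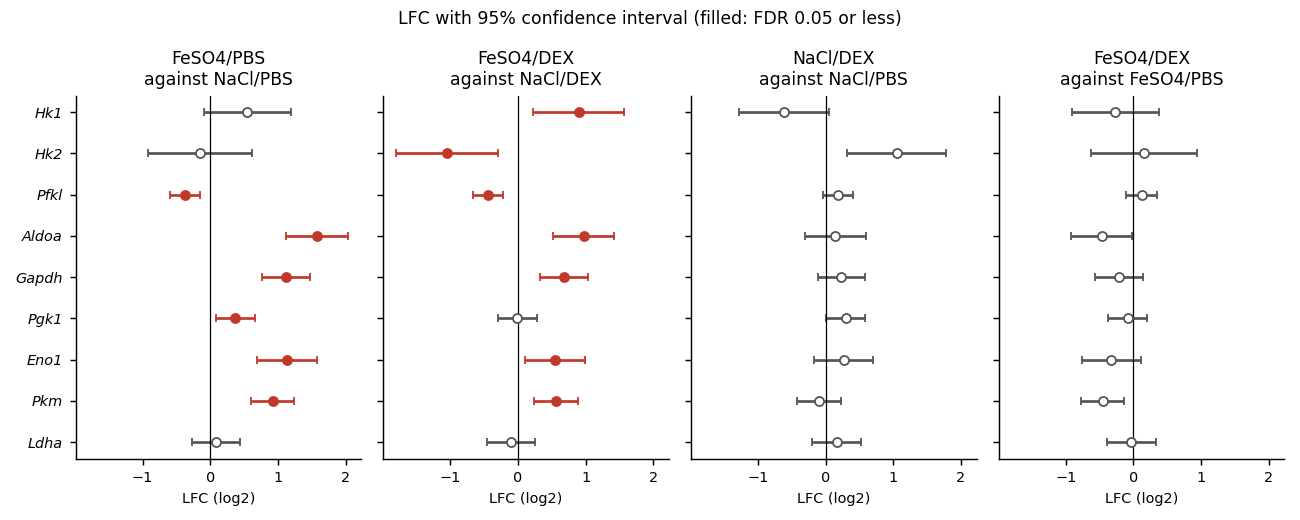
LFC with its 95% confidence interval of the 9 enzymes in 4 comparisons that share an x axis. Filled red points had an FDR of 0.05 or less. The FeSO4 comparisons in the left panels hold 6 and 7 filled points, and the DEX comparisons in the right panels hold none.

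With DEX alone 0 of the 9 enzymes were called by edgeR's test, with 2 at an unadjusted p under 0.05, and 1 by DESeq2's. Of all genes, 6.50% were higher and 7.15% lower in NaCl/DEX against NaCl/PBS, and with library size alone 618 were higher and 1776 lower in place of 901 and 991. All 3 NaCl/DEX mice were above all 3 NaCl/PBS mice in 6 enzymes, namely Hk2, Pfkl, Aldoa, Gapdh, Pgk1 and Eno1, and below them in 1, Hk1, as in 17.6% and 20.3% of all genes. These LFCs were between 0.14 and 1.05 in the 6 enzymes and -0.61 in Hk1. The overlap was judged on the TMM scale. With library size alone the LFCs were 0.90 in Hk2, 0.14 in Pgk1, 0.11 in Eno1 and 0.08 in Gapdh. They were 0.03 in Pfkl, -0.01 in Aldoa and -0.76 in Hk1, none of them called. Hk2 was nearest to a call. Its normalized counts of 108, 129 and 95.6 with DEX all lay above those of 51.1, 61.7 and 48.2 with PBS, the LFC was 1.05 ± 0.34 (SE) and the edgeR FDR 0.058. It was called with DESeq2 (FDR 0.021), with no filter on low counts, with the FeSO4 libraries left out, and without FeSO4/PBS mouse 1 or 2 or FeSO4/DEX mouse 1 or 2. Pgk1 was the other enzyme at an unadjusted p under 0.05, with an LFC of 0.29.

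In mice that had received FeSO4, DEX changed 0 of the 9 enzymes by edgeR's and by DESeq2's test, with 2 at an unadjusted p under 0.05. Of all genes 0.00% were called higher and 0.00% lower by edgeR in FeSO4/DEX against FeSO4/PBS, with 900 at an unadjusted p under 0.05, while DESeq2 called 5 higher and 5 lower and edgeR with no filter on low counts 99 higher and 71 lower. The 2 enzymes were Pkm, with an LFC of -0.46 ± 0.15 (SE) and an edgeR FDR of 0.71, and Aldoa, with one of -0.47 ± 0.21 (SE) and an edgeR FDR of 0.76. All 3 FeSO4/DEX mice had less Pkm, with 433, 364 and 346 normalized counts, than all FeSO4/PBS mice. It was the 1 enzyme of which the groups did not overlap, and 0 lay above, where 4.85% of all genes lay below and 4.45% above. Aldoa overlapped between these groups, and without FeSO4/PBS mouse 1 its LFC was -0.16.

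The test of whether DEX acted differently in NaCl and FeSO4 mice, which is equally a test of whether the FeSO4 response differed with DEX, called 0 of the 9 enzymes by edgeR and by DESeq2, with 0 at an unadjusted p under 0.05. It called 2.99% of all genes with a higher and 3.20% with a lower value in FeSO4 mice, which were 414 and 443 genes, and 575 and 327 with library size alone. For Aldoa the difference was -0.61, with a 95% confidence interval from -1.25 to 0.03 and an edgeR FDR of 0.27, and for Eno1 it was -0.59, from -1.21 to 0.03, with an edgeR FDR of 0.27. Both were called with no filter on low counts (FDR 0.034 and 0.047). Without FeSO4/PBS mouse 1 the difference was -0.32 for Aldoa (edgeR FDR 0.43) and -0.26 for Eno1 (edgeR FDR 0.41). Hk2 had the largest difference in size of the 9 enzymes, -0.90 with all 12 libraries, and was not called (edgeR FDR 0.34).

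The patterns most like those of the extremes were sought over 8974 genes by Pearson's r of the log2 CPM over the 12 libraries, as a description of likeness with no test, since the groups themselves differ. The genes most like Aldoa were Cinp with r of 0.985, Rnf40 with 0.985 and Ppig with 0.978. The genes most like Pfkl were Aqp11 with r of 0.969, Elovl6 with 0.959 and Decr2 with 0.958.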

How the data were processed

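RNAseq of liver was made from 12 mice in 4 groups of 3, assigned by their labels. Per the methods and labels, the authors sequenced stranded mRNA libraries single-end over 100 cycles. After FastQC, reads were mapped with STAR 2.7.10b to the mm39 build, with GENCODE 28 splice junctions. The authors deposited the counts of reads per gene, whole numbers without normalization. Which strand column of STAR was used is not given in the sources used here. Symbols came from GENCODE release M39 for 54749 of 55414 genes, and 30401 genes had no count.

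The counts were tested with edgeR 4.0.16 in R 4.3.3, in 1 quasi-likelihood model of the 4 groups with TMM factors after edgeR's filter on low counts (13857 genes), with a prior count of 0.125 for LFCs. DESeq2 1.42.0 was an alternative. Isozyme ratios took (count + 0.5) per kilobase of the canonical transcript, with exact permutation tests, in Python 3.11.15 with numpy 2.4.6. Levels per kilobase use the same lengths. Figures were drawn with matplotlib 3.10.9. As a check for a library deposited more than once, pairs of mice in a group were compared by the chi-square per gene, which was 17.3 to 86.0. The biological coefficient of variation over all genes was 0.169.

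Genes named are the 9 enzymes, some isozymes and neighbouring steps, the 3 called genes of largest LFC of each non-marker list, defining markers and those at 0, and the 3 genes most like the enzymes of largest rise and fall. The members and lists were chosen with earlier results of these data known. Pfkm was named after its values had been seen. Some genes of the lists are counted with them and, like the 3 isozyme ratios that need them, not reported here.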

Additional observations from a re-analysis of the deposited data

Results flagged for a closer look

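Among the genes named, 3 outside the 9 enzymes differed between NaCl and FeSO4 mice in their response to DEX, by the test of the difference itself. Ddit4 had a difference in LFC of -3.55 (edgeR FDR 1.9e-05), where DEX gave an LFC of 4.93 without and 1.38 with FeSO4. Normalized counts of Ddit4 were 95.6 to 104 in the NaCl/PBS mice and 2911 to 3251 with DEX alone. They were 708 to 1138 with FeSO4 alone and 1612 to 3196 with both. For Pfkfb3 the difference was -2.33 (edgeR FDR 3.5e-04), where DEX gave an LFC of 2.12 without and -0.21 with FeSO4. Its normalized counts were 224 to 273 in the NaCl/PBS mice, 800 to 1277 with DEX alone, 1308 to 1580 with FeSO4 alone and 1015 to 1731 with both. For Ndrg1 the difference was -0.90 (edgeR FDR 0.026), where DEX gave an LFC of 0.99 without and 0.09 with FeSO4. Normalized counts of Ndrg1 were 224 to 314 in the NaCl/PBS mice and 447 to 543 with DEX alone. They were 714 to 920 with FeSO4 alone and 737 to 941 with both. Groups of 3 mice were not tested for single mice that stand apart.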

How the results depend on the processing

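The 45 LFCs of the 9 enzymes had 846 values under alternatives, of which 808 kept their side of the threshold, 27 lost it and 11 gained it, and 0 called values changed sign. In FeSO4/PBS against NaCl/PBS, Pfkl, Aldoa, Gapdh, Eno1 and Pkm were called in all 19 alternatives each and Pgk1 in 12. The count of 5 higher lay between 4 and 6 with 1 mouse left out, that of 1 lower stayed at 1, and an LFC beyond 1 gave 3 and 0. In NaCl/DEX against NaCl/PBS the count of 0 higher became 1 with no filter, with the libraries of the comparison alone and with DESeq2, and 0 to 1 with 1 mouse left out. In FeSO4/DEX against NaCl/DEX the count of 5 higher became 2 with library size alone, 0 beyond an LFC of 1, and 3 to 5 with 1 mouse left out, and that of 2 lower became 1 beyond an LFC of 1 and 1 to 2 with 1 mouse left out. No filter gave 2 enzymes a lower value in the test of the difference, against 0. Library size alone put the median LFC of all genes at -0.34 in FeSO4/PBS against NaCl/PBS, and its calls of all genes at 2285 higher and 5829 lower against 3770 and 3783. The causes were not tested.

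The labels do not say whether the replicate numbers pair the mice. Same-numbered mice had correlations of their deviations between -0.17 and 0.21, and differently numbered mice between -0.32 and 0.28. With 3 mice per group this cannot decide whether they were paired. With the number as a block, 5 enzymes were higher and 1 lower in FeSO4/PBS against NaCl/PBS, and Eno1 lost its call in FeSO4/DEX against NaCl/DEX (FDR 0.055). The isozyme ratios reported moved by less than the spread between mice without a pseudocount. Taken within replicate numbers, their mean difference is the same by arithmetic, so that this was no check of them. Hk1 and Hk2, with 25 to 145 and 19 to 137 reads per library, had the widest intervals of the 9 enzymes.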
